A study of Arabidopsis thaliana with 12 samples.

Results

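UPOX, UGT74E2, OM66, DTX3, AT2G18193, AT2G41730, AT5G24640, AT4G08555 and AT5G43450 are 9 Arabidopsis genes named either as targets of mitochondrial dysfunction signalling or for their large rise with valinomycin. They were picked by locus from a table of 20233 genes, and all 9 had a row. The choice rested on the measured difference between valinomycin and mock, so values of that difference are given here as a description, with no test. The other contrast of valinomycin, in seedlings that also received bacteria, was tested, and its difference comes from 6 libraries outside the one that chose the genes. The genes and this test were nevertheless chosen with earlier results of these data known, so the test is not fully independent of the choice. The spread used in that test was estimated from all 12 libraries, so the mock and valinomycin libraries enter its p-values.

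Seedlings of Arabidopsis thaliana, 2 to 3 weeks old, were infiltrated under vacuum and collected after 6 h, and RNA labelled as leaf was sequenced. The 12 libraries form 4 groups of 3. Mock libraries came from mock-treated seedlings, and the content of the mock infiltration is not given in the sources used here. Valinomycin libraries received 10 µM valinomycin, a bacterial peptide antibiotic that carries potassium ions across membranes and dissipates the electrical potential of mitochondria. DC3000 libraries received the leaf pathogen Pseudomonas syringae pv. tomato DC3000, with no dose stated, and the combined group received both this bacterium and 10 µM valinomycin. No genotype is named for any group. Whether the 3 libraries of a group came from separate plants or cultures is not stated, so the spread behind each p-value is that between these samples and may be technical.

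When plant mitochondria fail, signals from the organelle change the transcription of nuclear genes, which is called mitochondrial retrograde signalling. In Arabidopsis the transcription factors ANAC013 and ANAC017 are held in the membrane of the endoplasmic reticulum, are released on mitochondrial dysfunction and bind the mitochondrial dysfunction motif in the promoters of their targets. AOX1A, the alternative oxidase, is the best known target. UPOX, OM66, UGT74E2 and AT2G41730 have been described among the others.

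That motif is shown first because targets of this signalling are among the genes. They were named partly as such targets, so the share of them with the motif is a description and not independent of the choice. The motif was searched as CTTGNNNNNCAAG, which reads the same on both strands, and as CTTGNNNNNCACG on either strand, in the 300 bases upstream of the annotated gene start in TAIR10.1. The forms differ in 1 letter and cannot match the same 13 bases. A match was found upstream of 5 of the 9 genes, and DTX3 had 2. The same search gave a match for 193 of 19191 gene promoters, which is 1.01%. The sequences below run 5′ to 3′ on the strand of the gene, with the match in capitals and 8 flanking bases on each side.

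UPOX, chr2:9254319-9254347 on the + strand: tttagtaaCTTGCTCTCCAAGgagatcta
AT2G18193, chr2:7919415-7919443 on the - strand: gtaatttcCTTGCACCGCACGcttccttc
AT5G24640, chr5:8436264-8436292 on the + strand: attaatttCTTGGTGGACAAGcatgtttg
AT4G08555, chr4:5447922-5447950 on the + strand: atcaatccCTTGGTTTCCAAGcaaatata
DTX3, farther match, chr2:1339663-1339691 on the - strand: tattagaaCTTGATTCCCAAGtaatcttt
DTX3, nearer match, chr2:1339604-1339632 on the - strand: tatacgaaCTTGGTCCCCAAGtatatttc

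The match began 51 bases upstream of the annotated start of UPOX, 80 bases upstream of AT5G24640, 90 bases upstream of AT2G18193 and 119 bases upstream of AT4G08555. The matches of DTX3 began 215 and 156 bases upstream. AT2G18193 carried the form ending in CACG and the other 4 genes the form ending in CAAG. UGT74E2, OM66, AT2G41730 and AT5G43450 had neither form in this window, and widening it to 1000 bases added none of them, while the share of all promoters with a match rose to 3.87%. Among 17 other genes of mitochondrial stress, 5 had a match within 300 bases. AOX1A, named above as the best known target, was among the 17 and had no match within 1000 bases, so this search misses known targets. A match is a stretch of letters and not a measured binding site, and its absence from the window says nothing about binding elsewhere.

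**Figure D1:**
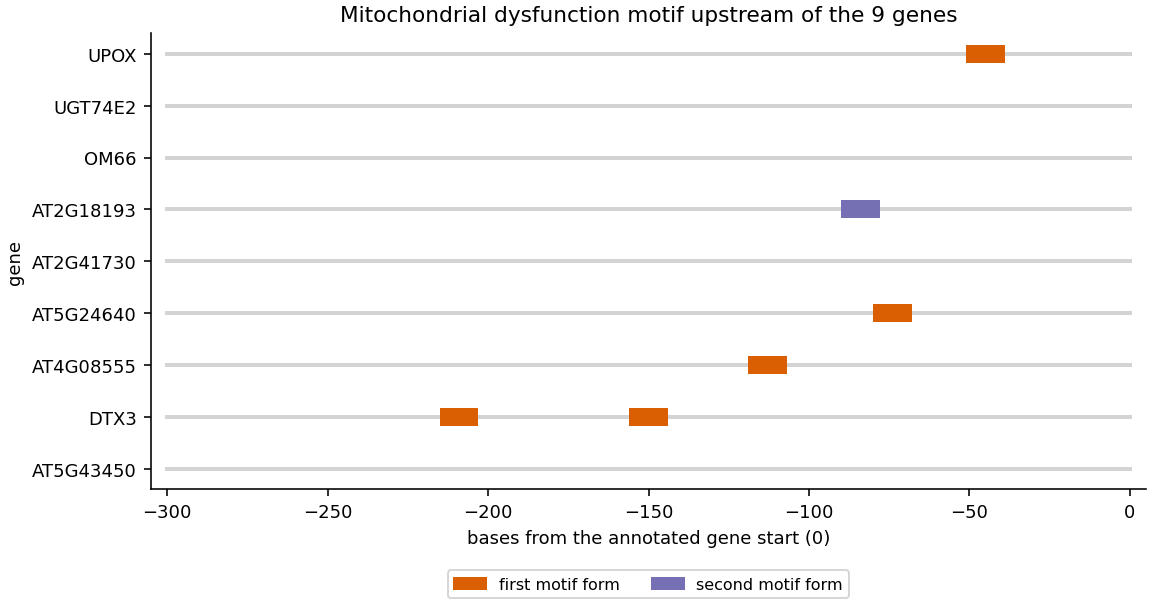
Position of the mitochondrial dysfunction motif in the 300 bases upstream of the 9 genes, in bases from the annotated gene start at 0. Orange marks the form ending in CAAG and purple the form ending in CACG, and matches lie upstream of 5 genes, between 215 and 39 bases from the start.

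Values are taken as FPKM, which scales the fragments of a gene to its transcript length in kilobases and to the sequencing depth in M (mega) fragments. This unit was inferred from the values because none is stated. Library totals ran from 1057472 to 1350272 FPKM, and chloroplast genes held 31.1% to 42.7% of them. Weak steps in the lowest values, scoring 0.140 to 0.290 on a scale from 0 (no steps) to 1 (perfect steps), would correspond to 13.4 to 15.5 M (mega) fragments per library. The 5 mesophyll markers fixed for the leaf label, CAB1, CAB2, RBCS1A, RBCS2B and RCA, were present, with sums of 35972 to 39394 FPKM in mock and 13309 to 15498 FPKM in the combined group. The 5 root markers also had rows, with sums of 289 to 446 FPKM over all libraries. Genes on the root list were thus measured in libraries labelled as leaf, and whether root tissue was present was not tested. In bulk RNA, fewer cells of a type and less RNA per cell cannot be told apart.

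UPOX and the AAA ATPase genes come first. UPOX (AT2G21640, TAIR10.1 chromosome 2, 9254378 to 9255743, + strand, 3 exons) encodes a small mitochondrial protein that is used as a marker of oxidative stress, and its model gives 104 residues. Its mock values were 0.849, 2.65 and 2.69 FPKM in replicates 1, 2 and 3, and its DC3000 values were 8.80, 7.16 and 5.98 FPKM. With valinomycin it stood at 233, 213 and 121 FPKM, and with both treatments at 258, 301 and 251 FPKM. The 3 combined libraries all lay above the 3 valinomycin libraries, which was the case for no other gene of the 9. Among the 9 genes UPOX also had the tightest valinomycin libraries, with an SD of 0.51 on the log2(FPKM + 1) scale.

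OM66 (AT3G50930, chromosome 3, 18929526 to 18932181, + strand, 1 exon, named BCS1 in RefSeq) encodes an AAA ATPase of the outer mitochondrial membrane that has been linked to salicylic acid and cell death. It was measured at 1.42, 2.08 and 1.66 FPKM in mock and at 3.68, 3.29 and 2.09 FPKM with DC3000. Valinomycin libraries held 134, 79.3 and 31.8 FPKM and combined libraries 30.6, 64.8 and 21.5 FPKM. The groups with valinomycin overlapped each other and lay well above both groups without it. OM66 had the lowest mean of the 9 genes in each of the groups given valinomycin.

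AT2G18193 (chromosome 2, 7917413 to 7919345, - strand, 2 exons) encodes a further ATPase of the AAA superfamily by its RefSeq product name. Values of 0.469, 1.12 and 1.01 FPKM in mock and of 2.46, 3.14 and 2.79 FPKM with DC3000 did not overlap. Valinomycin libraries stood at 292, 167 and 64.6 FPKM, and combined libraries at 126, 199 and 112 FPKM. The lowest of these 6 libraries was valinomycin replicate 3. Over 551 aligned bases the transcripts of AT2G18193 and OM66 shared 67.2% of their letters, with no identical run above 17 bases. A closer relative, AT2G18190, was 84.4% identical over 80.7% of the AT2G18193 transcript, with an identical run of 89 bases. Reads within that run cannot be assigned to either of these 2 genes.

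AT2G41730 and AT5G24640 form a pair of related short proteins, of 119 and 118 residues, and RefSeq describes the first as a calcium-binding site protein. AT2G41730 lies on chromosome 2 from 17409370 to 17410334 on the + strand and AT5G24640 on chromosome 5 from 8436352 to 8436895 on the + strand, each in 1 exon. Their transcripts were 86.9% identical over 503 bases, with a longest identical run of 47 bases, so reads within that run cannot be assigned to either one. How such reads were shared out is not given in the sources used here. AT2G41730 measured 3.06, 4.87 and 3.31 FPKM in mock, and 5.67, 5.17 and 4.60 FPKM with DC3000. It reached 928, 679 and 227 FPKM with valinomycin and 403, 673 and 419 FPKM with both treatments, the highest mean of the 9 genes in each of these groups.

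AT5G24640 measured 0.982, 2.20 and 0.760 FPKM in mock and 1.50, 0.198 and 0.965 FPKM with DC3000. The value of 0.198 FPKM in DC3000 replicate 2 would be about 1.04 fragments at the depth read from the steps, so this gene was barely detected there. It stood at 374, 263 and 77.5 FPKM with valinomycin and at 106, 181 and 104 FPKM with both treatments. It was the only gene of the 9 whose DC3000 mean, 0.888 ± 0.656 FPKM (SD, n = 3), was under its mock mean, 1.31 ± 0.775 FPKM (SD, n = 3), and these groups overlapped.

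AT4G08555 (chromosome 4, 5448049 to 5448638, + strand, 1 exon) encodes an uncharacterized protein of 69 residues. Mock libraries held 3.59, 6.70 and 1.51 FPKM, and DC3000 libraries 4.59, 2.55 and 13.0 FPKM. The spread without valinomycin was wide: DC3000 replicate 3 lay above every mock library and DC3000 replicate 2 among them. Valinomycin libraries held 701, 493 and 188 FPKM and combined libraries 226, 532 and 264 FPKM.

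UGT74E2, DTX3 and AT5G43450 belong to enzyme and carrier families that modify or export small molecules. UGT74E2 (AT1G05680, chromosome 1, 1703002 to 1704838, - strand, 2 exons) encodes a glucosyltransferase that acts on the auxin indole-3-butyric acid. Values of 3.23, 4.13 and 1.77 FPKM in mock and of 6.56, 8.81 and 9.22 FPKM with DC3000 did not overlap. It reached 565, 395 and 130.0 FPKM with valinomycin and 227, 392 and 194 FPKM with both treatments. These ranges overlapped almost fully.

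DTX3 (AT2G04050, chromosome 2, 1337180 to 1339468, - strand, 6 exons) encodes a MATE family efflux carrier. It was the gene with the lowest levels of the 9 in mock, at 0.194, 0.406 and 0.415 FPKM, and measured 0.531, 0.613 and 1.15 FPKM with DC3000. Valinomycin libraries held 158, 109 and 39.6 FPKM, and combined libraries 73.0, 111 and 75.6 FPKM. The mock values would be about 4.38 to 10.3 fragments each, so a ratio over them carries a large counting error.

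AT5G43450 (chromosome 5, 17457124 to 17458980, - strand, 3 exons) encodes an oxygenase that depends on 2-oxoglutarate and iron, by its RefSeq product name. It had the highest means of the 9 genes without valinomycin, with 5.91, 7.68 and 4.25 FPKM in mock and 12.8, 12.2 and 11.2 FPKM with DC3000. With valinomycin it stood at 260.4, 196 and 77.9 FPKM, and with both treatments at 89.4, 102 and 79.5 FPKM. None of the 9 gene models overlapped an exon of another gene.

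**Figure D2:**
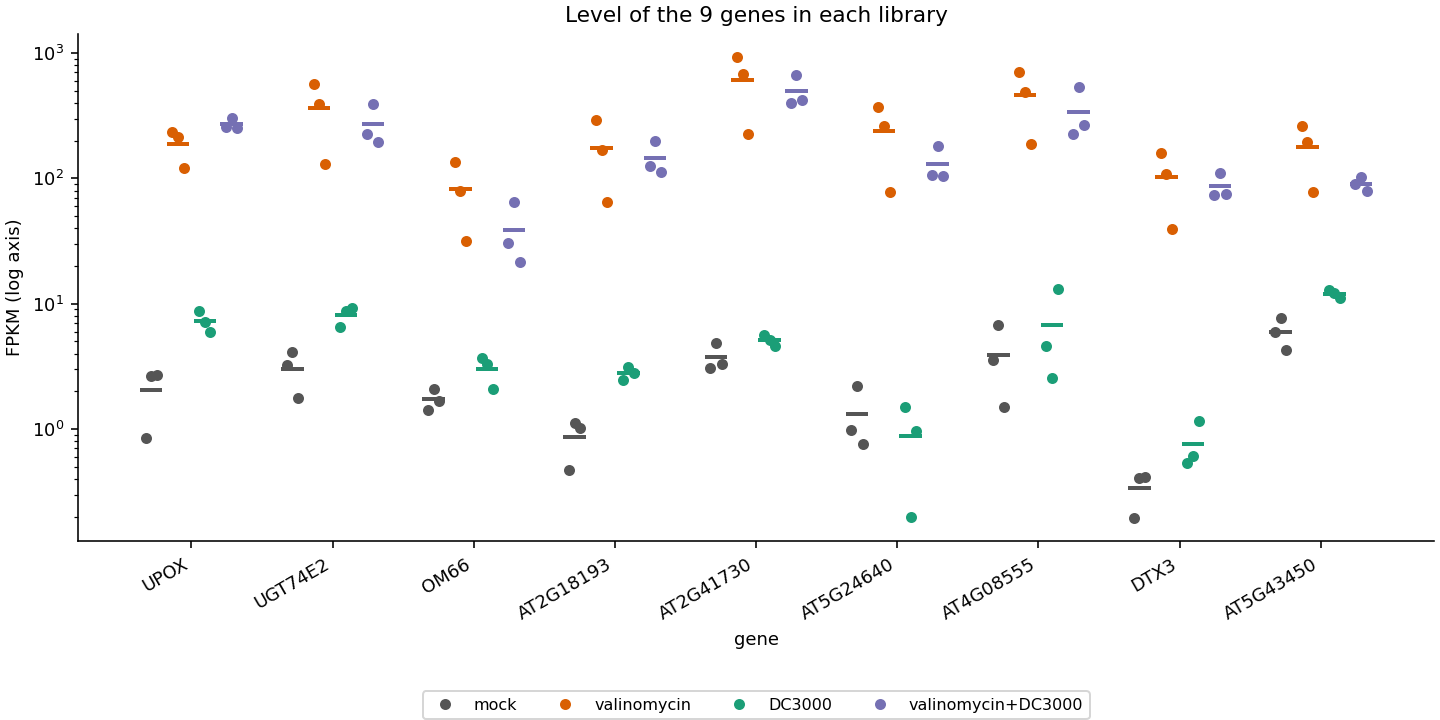
FPKM of the 9 genes in each library on a log axis, with points for the 3 libraries of a group from replicate 1 at the left to replicate 3 at the right and a line at the group mean. Libraries given valinomycin lie between 21.5 and 928 FPKM, and libraries without it between 0.194 and 13.0 FPKM.

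Ordered by mean FPKM, which is a level per transcript length, the valinomycin group ran from AT2G41730 at 611 ± 356 FPKM (SD, n = 3) through AT4G08555, UGT74E2, AT5G24640, UPOX, AT5G43450, AT2G18193 and DTX3 to OM66 at 81.7 ± 51.0 FPKM (SD, n = 3). Each gene in that order overlapped its neighbours, so adjacent places were not separated beyond the spread. With both treatments the order ran from AT2G41730 at 498 ± 152 FPKM (SD, n = 3) through AT4G08555, UGT74E2, UPOX, AT2G18193, AT5G24640, AT5G43450 and DTX3 to OM66 at 39.0 ± 22.9 FPKM (SD, n = 3). There UPOX lay clear of AT2G18193, AT5G24640 clear of AT5G43450 and DTX3 clear of OM66, while the other neighbours overlapped. Without valinomycin AT5G43450 led, at 5.95 ± 1.72 FPKM in mock and 12.05 ± 0.813 FPKM with DC3000 (SD, n = 3 each). Its DC3000 values lay clear of those of UGT74E2, the next gene, whereas its mock values overlapped those of AT4G08555.

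The difference that chose the genes, valinomycin minus mock on the log2(FPKM + 1) scale, ran from 4.55 ± 0.32 (SE) for AT5G43450 to 6.81 ± 0.38 for AT2G41730. The values were 4.71 ± 0.43 for OM66, 5.97 ± 0.27 for UPOX and 6.33 ± 0.39 for AT2G18193. AT5G24640 stood at 6.47 ± 0.46, AT4G08555 at 6.50 ± 0.54, UGT74E2 at 6.30 ± 0.42 and DTX3 at 6.06 ± 0.36. Of 18048 genes tested, 38.5% were called higher in this comparison by limma, and nothing is read from the place of the 9 genes among them. Ranked by size of the rise, 7 of the 9 genes fell in the first 10 places, AT2G41730 at 2 and UPOX at 10, whereas OM66 stood at 57 and AT5G43450 at 66. Genes outside the 9 lay among them: CYP81D8 came first at 6.85, GSTF6 stood at 6.02 and AT3G07365 at 5.99, and AT4G22470 at 5.92 lay just under UPOX. The median over all genes tested was 0.27, and it moved to 0.00 with median-of-ratios scaling, so each of these values carries a shift of that size that depends on the scaling.

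Valinomycin also raised all 9 genes in seedlings that received the bacterium. In the combined group against DC3000, 9 of 9 genes were called higher at an adjusted p under 0.05 by limma with Benjamini-Hochberg adjustment over 18048 genes, and 14.1% of all genes tested were called higher. The genes and this test were chosen with earlier results of these data known. DTX3 was among the genes tested only through its levels in the groups given valinomycin. The 3 combined libraries lay above the 3 DC3000 libraries for 9 of 9 genes, which held for 23.8% of all genes tested. The median log2 difference was 5.23 over the 9 genes and -0.06 over all genes tested.

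UPOX rose 36.9-fold in mean FPKM, from 7.31 ± 1.42 to 269.7 ± 27.2 FPKM (SD, n = 3 each). That is a log2 difference of 5.03 ± 0.27 (SE), with a limma adjusted p of 1.72e-07. AT2G18193 rose by 5.23 ± 0.39 (limma adjusted p = 1.53e-06), from 2.80 ± 0.341 to 146 ± 46.6 FPKM. OM66 rose less, by 3.19 ± 0.43 (limma adjusted p = 0.000146), from 3.02 ± 0.831 to 39.0 ± 22.9 FPKM.

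On the log2(FPKM + 1) scale the largest rise of all 18048 genes in this comparison was that of AT2G41730, at 6.31 ± 0.38 (limma adjusted p = 2.6e-07). Its mean rose 96.9-fold, from 5.14 ± 0.536 to 498 ± 152 FPKM. AT5G24640 came next, at 6.13 ± 0.46 (limma adjusted p = 1.54e-06), with the low DC3000 values named above behind it. The order rests on the pseudocount: with 0.1 in place of 1, AT5G24640 came first at 7.30, DTX3 stood at place 2 with 6.69 and AT2G41730 at place 4 with 6.53. In mean FPKM, too, DTX3 rose more than AT2G41730, by 113-fold over its low DC3000 levels. AT4G08555 rose by 5.60 ± 0.54 (limma adjusted p = 1.23e-05), from 6.73 ± 5.56 to 341 ± 166 FPKM.

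With the pseudocount of 1 DTX3 held place 3, at 5.62 ± 0.36 (limma adjusted p = 3.59e-07). DTX3 averaged 0.338 FPKM in mock and 0.765 FPKM with DC3000. It thus reached the mean of 1 FPKM required for testing only through the groups given valinomycin, and its p-value is a description. UGT74E2 rose 33.0-fold in mean FPKM, with a log2 difference of 4.83 ± 0.42 (limma adjusted p = 4.55e-06). AT5G43450 had the smallest rise of the 9 genes, 2.80 ± 0.32 (limma adjusted p = 4.54e-05), from 12.05 ± 0.813 to 90.3 ± 11.2 FPKM. It stood at place 141, and OM66 at place 81. Because the genes were chosen for their large difference in the other contrast, their places here describe these genes and not a wider group.

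The mesophyll markers moved the other way in the same comparison, with 4 of 5 called lower in the combined group by limma (13.5% of all genes tested were called lower) and sums of 19508 to 22598 FPKM with DC3000. Sums of the 5 guard cell markers were 34.7 to 43.5 FPKM with DC3000 and 30.7 to 32.9 FPKM with both, and those of the 5 vascular markers 38.8 to 46.6 and 38.5 to 46.0 FPKM. Root marker sums were 296.5 to 420 FPKM with DC3000 and 289 to 349 FPKM with both, and the 4 meristem and epidermis markers with a row summed to 68.0 to 78.6 and 79.8 to 84.4 FPKM. None of these sums moved by a factor near that of the 9 genes, but a sum is led by its highest genes. Limma called 1 higher and 1 lower of 5 root markers and of 4 tested meristem and epidermis markers. It called 0 higher and 1 lower of 4 tested guard cell markers, and 0 of 5 vascular markers. Of all genes tested 14.1% were called higher. The root marker called lower fell from a mean of 7.53 to 0.777 FPKM, by a larger factor than AT5G43450 rose. The part of the marker lists in the result was not tested.

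**Figure D3:**
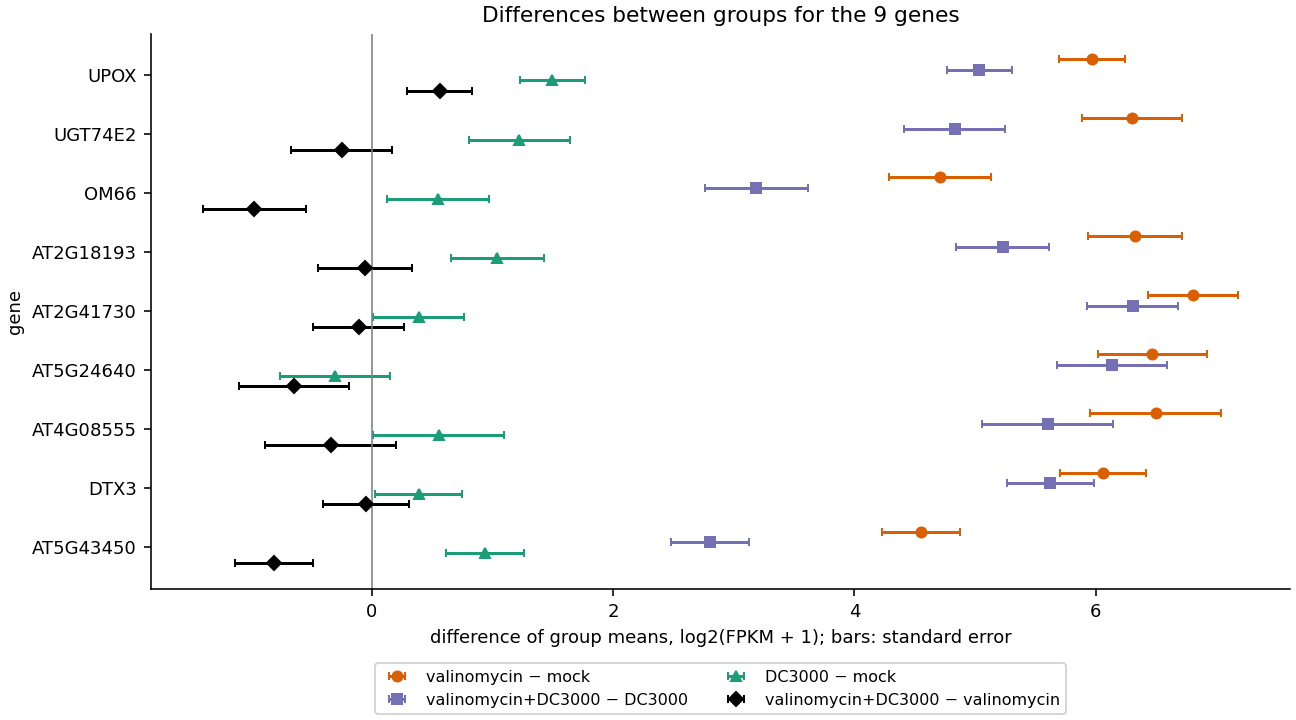
Differences of group means for the 9 genes on the log2(FPKM + 1) scale, with bars of 1 standard error from the model of all 12 libraries. Valinomycin minus mock lies between 4.55 and 6.81 and the combined group minus DC3000 between 2.80 and 6.31, whereas DC3000 minus mock lies between -0.31 and 1.50.

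With the bacterium alone the 9 genes stayed far below their levels with valinomycin. DC3000 minus mock shares the mock libraries with the difference that chose the genes, so its values are a description with no test. The log2 difference was 1.50 ± 0.27 (SE) for UPOX, 1.22 ± 0.42 for UGT74E2 and 1.04 ± 0.39 for AT2G18193. For AT5G43450 it was 0.94 ± 0.32, and for OM66 and AT4G08555 it was 0.55, with SEs of 0.43 and 0.54. AT2G41730 and DTX3 stood at 0.39, with SEs of 0.38 and 0.36, and AT5G24640 at -0.31 ± 0.46. DC3000 libraries lay above all mock libraries for 6 of 9 genes, against 36.1% of all genes tested, and overlapped them for AT2G41730, AT5G24640 and AT4G08555. In mean FPKM the increases were at most 3.55-fold, for UPOX. With a pseudocount of 0.1 the value of DTX3 was 0.96, that of AT2G18193 1.65 and that of AT5G24640 -0.69. AT4G08555 fell to 0.00 without DC3000 replicate 3. The median over the 9 genes was 0.55, and over all genes tested it was 0.18.

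Differences between the combined group and the valinomycin group were small beside those between either group and its control. The comparison of the combined group with valinomycin shares the valinomycin libraries with the difference that chose the genes and was not tested either. UPOX was 1.43-fold higher in mean FPKM with both treatments, a log2 difference of 0.56 ± 0.27 (SE), and was 1 gene of 9 without overlap, against 12.3% of all genes tested in that direction. OM66 and AT5G43450 had the lowest values, -0.98 ± 0.43 and -0.81 ± 0.32, and AT5G24640 stood at -0.64 ± 0.46. The other 5 genes lay between -0.34 and -0.05, each within its SE of 0. With median-of-ratios scaling AT2G18193 and DTX3 moved from -0.06 and -0.05 to 0.05 each, so their direction depends on the scaling.

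The log2 difference made by valinomycin was smaller in seedlings with DC3000 for each of the 9 genes, and the gap ran from -1.75 to -0.34. These values share the choosing libraries and are a description. AT5G43450 had the widest gap, -1.75 ± 0.45 (SE), and AT5G24640 the narrowest, -0.34 ± 0.64. The median gap was -0.93 over the 9 genes and -0.29 over all genes tested, of which limma called 19.4% lower and 5.25% higher in this interaction. With median-of-ratios scaling the medians were -0.66 and -0.01, and 12.2% of all genes were called lower and 13.8% higher, so the gap over all genes depends on the scaling. The values of the 9 genes then ran from -1.44 to -0.13.

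Libraries of the same group differed in step across the 9 genes. In the valinomycin group replicate 1 was highest and replicate 3 lowest for 9 of 9 genes, an order found in 22.1% of all genes tested. In the combined group replicate 2 was highest for 9 of 9 genes, against 38.3% of all genes tested. The SD of the valinomycin libraries on the log2(FPKM + 1) scale had a median of 1.03 over the 9 genes and 0.197 over all genes tested. For DC3000 the medians were 0.245 and 0.166, and for the combined group 0.434 and 0.146. Apart from UPOX, whose valinomycin libraries ran from 121 to 233 FPKM, the means of these genes in the valinomycin group thus rest on libraries that differ several-fold.

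Valinomycin replicate 3 weighed on the differences from that group. Without it, valinomycin minus mock ran from 5.06 for AT5G43450 to 7.41 for AT2G41730. The combined group minus valinomycin then stood at -1.53 for OM66, -1.32 for AT5G43450 and -1.31 for AT5G24640, and UPOX at 0.27. Without valinomycin replicate 1 the value of AT2G18193 was 0.44, that of DTX3 0.37, that of AT2G41730 0.30, that of UGT74E2 0.19 and that of AT4G08555 0.06, all turned in direction. The direction of that comparison thus depends on single libraries for 5 genes, while the combined group minus DC3000 does not use the valinomycin libraries in its difference.

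A list of 20 other genes of mitochondrial stress, with the 9 genes left out, had 17 with a row. Of these limma called 14 higher and 0 lower in the combined group against DC3000, where 14.1% of all genes tested were called higher, with a median log2 difference of 2.77. The largest were AT5G51440, a mitochondrial small heat shock protein, at 5.29 ± 0.33 (SE, limma adjusted p = 3.52e-07), and HSP23.6-MITO, another of that kind, at 4.64 ± 0.31 (limma adjusted p = 4.98e-07). HSP23.6-MITO averaged 0.263 FPKM in mock and 0.218 FPKM with DC3000, so it was tested only through the groups given valinomycin. AT2G32020 rose by 4.34 ± 0.41 (limma adjusted p = 9.05e-06) and the sulfotransferase SOT12 by 4.15 ± 0.38 (limma adjusted p = 7.97e-06). AOX1A rose by 3.97 ± 0.32 (limma adjusted p = 3.25e-06), from 14.4 ± 2.33 to 246 ± 71.0 FPKM (SD, n = 3 each).

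Against mock, valinomycin alone raised 15 of these 17 genes and lowered 1, the alternative NADH dehydrogenase NDA1, whose mean fell from 26.2 to 7.30 FPKM (log2 difference -1.77 ± 0.20, SE, limma adjusted p = 7.98e-06). The shares of all genes tested that were called in that comparison were 38.5% higher and 13.8% lower. NDA1 was not called in the combined group against DC3000 (0.14 ± 0.20, limma adjusted p = 0.634), and neither were SHM7 and AT5G64400. The mean of NDA1 with DC3000 alone was already low, at 4.47 FPKM. A motif match lay within 300 bases upstream of NDA1, beginning 70 bases from its start, as well as upstream of CRF6, NDB2, HSP23.6-MITO and AT5G51440. Genes with the motif therefore included both ones that rose and 1 that fell. DC3000 against mock gave 5 higher and 2 lower of the 17, where 31.6% and 17.2% of all genes tested were called higher and lower. In the combined group against valinomycin 0 of 17 were called in either direction, with 4.72% of all genes called higher and 10.4% lower.

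**Figure D4:**
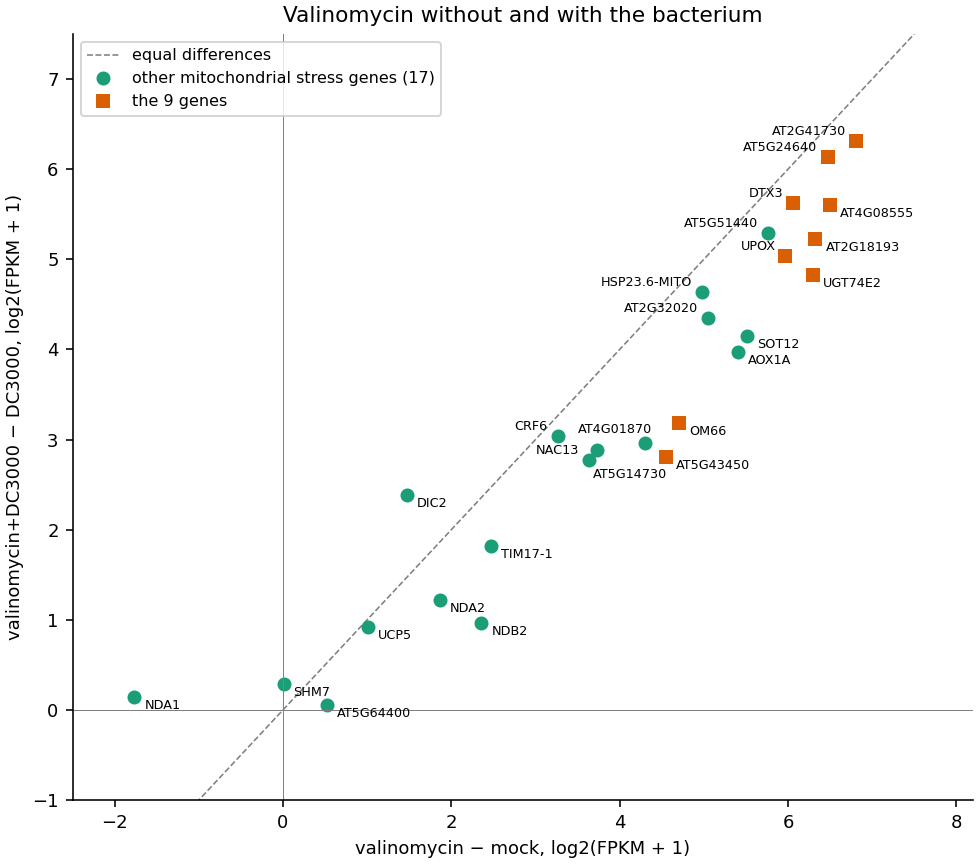
Valinomycin minus mock on the horizontal axis against the combined group minus DC3000 on the vertical axis, both as differences on the log2(FPKM + 1) scale. Orange squares are the 9 genes and green points 17 other mitochondrial stress genes, and the dashed line marks equal differences: all 9 squares lie to the right of it, and NDA1 lies alone at the left at -1.77.

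Mitochondrial chaperones and proteases, which fold and clear proteins inside the organelle, were called in part. In the combined group against DC3000 limma called 7 of 12 higher and 0 lower, where 14.1% and 13.5% of all genes tested were called, with a median of 0.73. The chaperone mtHsc70-1 rose by 2.46 ± 0.26 (SE, limma adjusted p = 2.15e-05), from 25.3 to 146 FPKM, and the disaggregase CLPB4 by 2.45 ± 0.25 (limma adjusted p = 1.57e-05). MGE1, a nucleotide exchange factor of the chaperone, rose by 1.59 ± 0.19 (limma adjusted p = 7.06e-05) and the protease LON1 by 0.95 ± 0.15 (limma adjusted p = 0.000478). The 3 FtsH proteases on the list, ftsh3, ftsh4 and ftsh10, had values of 0.27, -0.06 and 0.15 and were not called.

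Of the regulators, limma called 5 of 9 higher and 0 lower in the same comparison, where 14.1% and 13.5% of all genes tested were called. With valinomycin against mock 9 of 9 were called higher, against 38.5% of all genes tested. NAC13, the gene of ANAC013, which the stress list also holds, rose by 2.77 ± 0.35 (SE, limma adjusted p = 9.88e-05), from 8.53 to 63.1 FPKM. WRKY15 rose by 1.99 ± 0.29 (limma adjusted p = 0.000301), the membrane-bound NAC factor NAC053 by 1.71 ± 0.21 (limma adjusted p = 8.33e-05) and RCD1, whose protein binds ANAC013, by 1.48 ± 0.19 (limma adjusted p = 9.93e-05). NAC017, the gene of ANAC017, named here after its values were seen, stood at 0.44 ± 0.18 (limma adjusted p = 0.0803). WRKY40, also named after its values were seen, had risen with the bacterium alone, by 5.05 over mock (limma adjusted p = 6.73e-08), and stood at 0.74 ± 0.37 in the combined group against DC3000 (limma adjusted p = 0.151).

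Close relatives of the 9 genes moved in both directions. The nearest relative of UGT74E2 is its neighbour AT1G05675, whose transcript is 89.0% identical over 80.2% of the length, and whose gene lies 252 bases away. AT1G05675 rose by 4.03 ± 0.45 in the combined group against DC3000 (SE, limma adjusted p = 3.93e-05), from 0.525 to 25.0 FPKM. Its mock mean was 0.647 FPKM, so AT1G05675 was tested only through the groups given valinomycin. The longest run shared by these transcripts is 59 bases, so some reads cannot be told apart, and levels of the lower gene are uncertain. Of 5 tested genes of the UGT74 group, limma called 2 higher and 2 lower, where 14.1% and 13.5% of all genes tested were called. UGT74F2, which glucosylates salicylic acid, rose by 1.90 ± 0.38 (limma adjusted p = 0.00248), and AT2G31790 and the glucosinolate enzyme UGT74B1 fell by 0.75 ± 0.18 and 0.63 ± 0.19 (limma adjusted p = 0.00681 and 0.0261).

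DTX3 stands in a cluster of MATE genes, with DTX1 629 bases away and 86.4% identical over 85.3% of the DTX3 transcript. DTX1 rose by 3.28 ± 0.35 (SE, limma adjusted p = 2.98e-05) in the combined group against DC3000, from 2.78 to 35.8 FPKM. Its relatives AT2G04066 and AT2G04080 fell in that comparison, by 1.20 ± 0.21 (limma adjusted p = 0.000989) and 0.64 ± 0.19 (limma adjusted p = 0.0212). Both had risen with DC3000 against mock, by 2.86 and 2.69. A wider list of MATE carriers also held genes on chromosome 1, outside this cluster. Of its 8 tested genes, limma called 2 higher and 3 lower in the combined group against DC3000. The shares of all genes tested were 14.1% and 13.5%. The second of the carriers called higher was AT1G71140, on chromosome 1, at 1.06 ± 0.19 (limma adjusted p = 0.00127). AT2G04070, the closest relative of DTX3 at 90.3% identity, was not analysed here, so reads from it that were counted for DTX3 would not be seen.

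The other BCS1-like ATPases, relatives of OM66 and AT2G18193, were called about as often as all genes tested. Of 7 tested, limma called 1 higher in the combined group against DC3000, AT2G46620, at 0.70 ± 0.20 (SE, limma adjusted p = 0.0161), and 0 lower, with a median of 0.04, where 14.1% of all genes tested were called higher. Both nearest relatives by sequence, AT3G50940 for OM66 and AT2G18190 for AT2G18193, were not analysed here. Reads from AT2G18190 that were counted for AT2G18193 would therefore not be seen.

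AT5G43450 and its neighbour AT5G43440 lie 428 bases apart and are 84.0% identical over 75.3% of the AT5G43450 transcript. With the bacterium alone their mean levels were close, at 12.05 FPKM for AT5G43450 and 14.1 FPKM for AT5G43440. Their rises over mock differed, as AT5G43450 stood at 0.94 ± 0.32 (SE) in DC3000 minus mock. AT5G43440 had a mean level of 0.539 ± 0.183 FPKM in mock and of 31.0 ± 3.64 FPKM in valinomycin libraries (SD, n = 3 each). Means were 14.1 ± 0.814 FPKM for DC3000 and 16.7 ± 1.12 FPKM for the combined group (SD, n = 3 each). It rose with valinomycin against mock by 4.38 ± 0.14 (SE, limma adjusted p = 4.59e-11) and with DC3000 against mock by 3.30 ± 0.14 (limma adjusted p = 3.23e-10). The combined group and DC3000 differed by 0.23 ± 0.14 (limma adjusted p = 0.247), where AT5G43450 had risen by 2.80. Of 11 tested oxygenases near AT5G43450 in sequence, limma called 4 higher and 1 lower in that comparison. The shares of all genes tested were 14.1% and 13.5%. These oxygenases were led by AT5G59530 at 2.22 ± 0.28 (limma adjusted p = 8.61e-05) and AT2G30830 at -1.70 ± 0.36 (limma adjusted p = 0.0036). AT5G59540 and AT1G06620 rose by 1.18 ± 0.24 and 1.07 ± 0.20 (limma adjusted p = 0.00254 and 0.00145).

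Of 18 nearest measured neighbours of the 9 genes, 1 on each side, limma called 5 higher and 1 lower in the combined group against DC3000. Of all genes tested, 14.1% were called higher and 13.5% lower there. Only AT1G05675 and DTX1 rose by more than 2 on the log2 scale. ZAR1, an immune receptor gene beside OM66, rose by 1.34 ± 0.23 (SE, limma adjusted p = 0.00101). LPPepsilon1 and AT5G43460 rose by 0.61 and 0.62 (limma adjusted p = 0.0276 and 0.0316). BIN4 and AT5G24650, which lie 158 and 128 bases from AT5G24640, had values of -0.28 ± 0.18 and 0.00 ± 0.17 and were not called (limma adjusted p = 0.279 and 0.993).

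**Figure D5:**
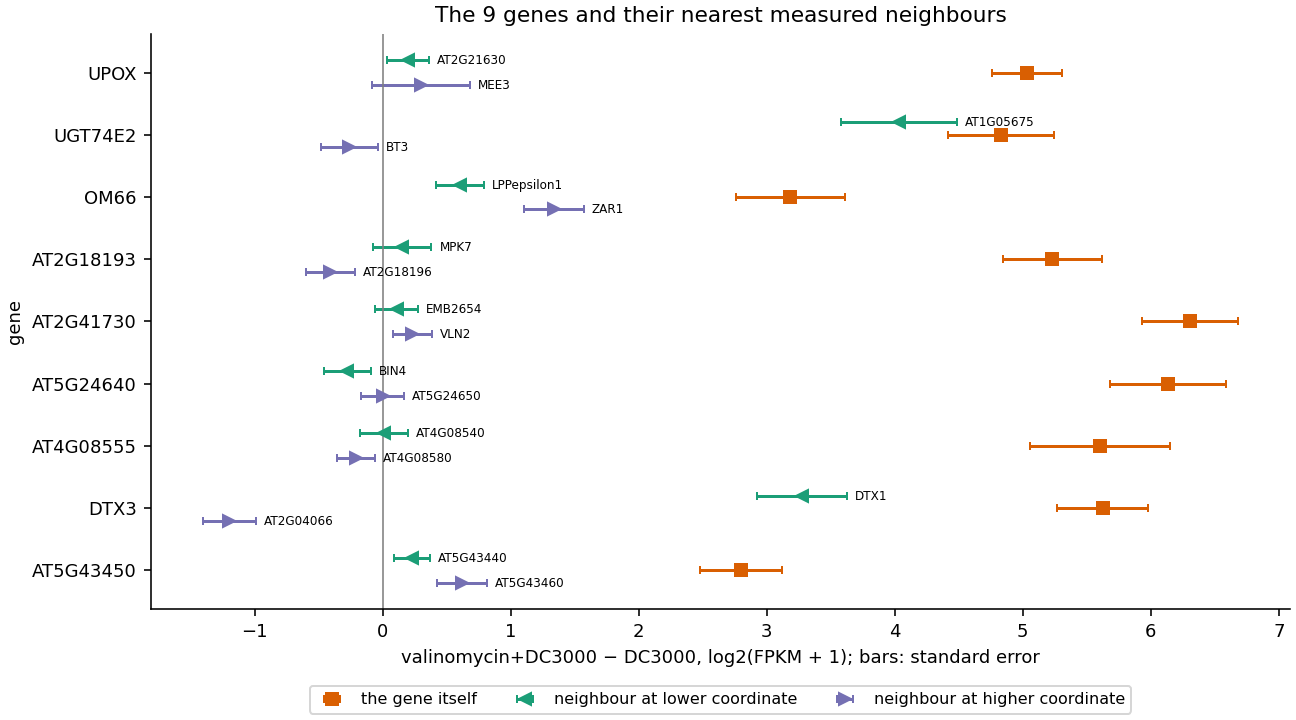
Combined group minus DC3000 on the log2(FPKM + 1) scale for the 9 genes (orange squares) and their nearest measured neighbours at lower (green) and higher (purple) coordinates, with bars of 1 standard error. Only AT1G05675 and DTX1 among the neighbours lie above 2.

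Across the 12 libraries, the genes whose profile was most like the mean profile of the 9 genes were GSTU24, a glutathione transferase, at a Pearson r of 0.996, and AT2G33710 at 0.996. AGC2-1, AT5G54100 and AT1G53625 followed at 0.995 each. Taken singly, UPOX was most like MIOX2 (r = 0.993), UGT74E2 and AT5G43450 most like DOGT1 (0.997 and 0.995) and OM66 most like UGT73C6 (0.993). AT2G18193 was most like the transporter gene ABCB4 (0.996) and AT4G08555 most like GSTU24 (0.997). AT2G41730 and AT5G24640 both had HSP23.6-MITO as nearest (0.996 each), and DTX3 had AT5G51440 (0.996). The 12 points of each r fall into libraries with and without valinomycin, so these values chiefly reflect that division and are a description with no p.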

How the data were processed

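Per the labels' protocols, an RNeasy Plant Mini kit gave the RNA and the CORALL kit for total RNA the libraries. The deposited table holds values normalized by the authors, taken as FPKM from their size and totals since no unit is stated. The submitters' processing notes name the build TAIR10. Which aligner, quantifier and strand setting were used is not given in the sources used here. No value was 0, and no count test was run. Gene models, promoters and product names came from RefSeq on TAIR10.1, in which 20054 of 20233 loci and all 9 genes matched by locus tag.

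Values were transformed to log2(FPKM + 1), which understates the change of low genes. Genes averaging 1 FPKM or more over the 12 libraries, 18048 in all, entered 1 limma 3.58.1 model of 4 group means in R 4.3.3, with 8 residual degrees of freedom, a trend of spread with expression and Benjamini-Hochberg adjustment over all of them. Genes were called at an adjusted p under 0.05. Tested on simulated data for the combined group against DC3000, it recovered 78% of genes changed by 1 and 99% of those changed by 2 on the log2 scale, with 9 false calls among 18048 genes. Changes were simulated only in genes with a DC3000 mean above 2 on that scale. Recovery is therefore not known for lower genes, such as DTX3 and AT5G24640 at 0.765 and 0.888 FPKM. DTX3, HSP23.6-MITO, AT1G05675 and AT5G59530 averaged under 1 FPKM in mock and with DC3000. They passed the filter only through the groups given valinomycin, so their p-values are a description. Noise was drawn separately for each gene, without libraries that deviate in step. Relatives were found with blastn 2.17.0. Depth was read from steps in low values against transcript length less 0.2 kb and is approximate.

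The 9 genes, the lists and the tests were chosen with earlier results of these data known. Named from each list were at most 4 genes with the largest log2 difference among those called in the combined group against DC3000, and the nearest measured neighbour on each side of each of the 9 genes. Marker lists are given as sums. AOX1A, NDA1, NDB2, CRF6, SHM7, AT5G64400, the FtsH genes, NAC017, WRKY40 and AT5G43440's levels were added with values in view. Alternatives were another pseudocount, no filter, rescaling, a replicate block, only the groups compared, no trend and each library left out.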

Additional observations from a re-analysis of the deposited data

Results flagged for a closer look

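None of the 9 genes was tested for a difference between the valinomycin effect with DC3000 and that without it, because the genes were chosen on the latter. Of 69 other genes named here or chosen by the same rules, 18 passed limma's interaction test (adjusted p under 0.05), given as the log2 effect with DC3000 minus that without. Some, such as GSTF6 and AT4G22470, were named for their places in valinomycin minus mock. Others were named for their size in the combined group against DC3000 or with values in view. Both differences enter the interaction, so these p-values are not independent of the choice and serve as a description. The largest gaps were -4.89 ± 0.52 (SE, limma adjusted p = 1.88e-05) for WRKY40 and -4.15 ± 0.20 (limma adjusted p = 1.16e-08) for AT5G43440, beside AT5G43450. AT4G22470 and GSTF6 stood at -3.80 and -3.57 (limma adjusted p = 1.73e-05 and 0.000573). Of the genes beside AT2G18193, AT2G18196 stood at -2.02 and MPK7 at -1.70, and AT2G21630 beside UPOX at -0.67 (limma adjusted p = 0.000134, 0.00206 and 0.0469). The MATE genes AT2G04066 and AT2G04080 stood at -1.27 and -1.08 (limma adjusted p = 0.00691 and 0.00961). AOX1A and NDB2 stood at -1.43 and -1.39 (limma adjusted p = 0.0338 and 0.0298). The glucosyltransferase gene UGT74F2 stood at -1.57, the oxygenase genes AT2G30830 and AT5G59540 at -1.56 and -1.42, the BCS1-like gene AT2G46620 at -0.88 and the chaperone partner MGE1 at -0.84 (limma adjusted p = 0.0466, 0.0382, 0.00772, 0.0318 and 0.0364). NDA1 and the mesophyll marker RCA went the other way, at 1.91 and 1.06 (limma adjusted p = 0.00037 and 0.000946): both fell with valinomycin alone and were not called in the combined group against DC3000. Both were already low with DC3000 alone, where the log2 difference from mock was -2.32 for NDA1 and -1.70 for RCA. With median-of-ratios scaling, tried after seeing the data, 11 of the 18 still passed. MGE1, AT2G46620, UGT74F2, AT2G30830, AT2G21630, AOX1A and NDB2 did not, with limma adjusted p of 0.117, 0.0784, 0.115, 0.0555, 0.0905, 0.107 and 0.0703. Over all genes tested, 19.4% were called lower and 5.25% higher in this interaction with the deposited scaling, and 12.2% and 13.8% with the other, whose median was -0.01 where the deposited one was -0.29.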

How the results depend on the processing

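The 9 genes were called higher in the combined group against DC3000 under every alternative run, with the largest limma adjusted p, 0.000932, for OM66 without mock replicate 3. Their log2 differences ranged from 2.71 for AT5G43450 without combined replicate 2 to 7.30 for AT5G24640 with a pseudocount of 0.1, which also took the untested valinomycin minus mock of DTX3 from 6.06 to 7.70. The count of all genes called there, 4987, was 2916 to 5721 with 1 library left out: 1681 to 2890 higher (2551 with all) and 1235 to 2831 lower (2436 with all). It fell to 2916 without combined replicate 2, 3276 without DC3000 replicate 1 and 3320 without DC3000 replicate 2. With nuclear genes scaled to 1 total, 2794 genes were called higher and 1629 lower; this alternative was chosen after seeing the data. The regulators called in that comparison went from 5 to 8 in a fit of only the groups compared, and from 4 to 7 with 1 library left out. The cause was not tested. Deviations of same-numbered libraries had r from -0.24 to 0.44, and those of libraries with other numbers had r from -0.49 to 0.49. These ranges overlap and cannot show whether the numbers pair the libraries. With the replicate as a block 5338 genes and 9 of the 9 were called. The unit and the depth are inferred, which limits DTX3 and AT5G24640 without valinomycin.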
